A study of Mus musculus with 6 samples.

Results

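The genes described here are 10 mouse genes that mark the two-cell-like state: Zscan4c, Zscan4d, Zscan4f, Usp17la, Usp17lc, Usp17le, Zfp352, Tcstv1, Tcstv3 and Tdpoz4. They were selected on their place in the best known gene clusters of that state, with earlier results of these data in view, and their loops were chosen by the position of a bait and by a score at or above the lists' minimum. A bait, which is a promoter fragment that the capture probes enriched, was assigned to a gene where it overlapped the RefSeq gene body extended by 2 kb on either side. A loop, which is a contact between a bait and another place that the authors' caller scored at 5 or more, was assigned where such a bait was at either end on the same chromosome. This gave 6 of 19083 baits and 15 of 84105 same-chromosome loops. Because the loops were found in the same lists that give their numbers, the loop numbers are described and were not tested.

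A small share of mouse embryonic stem cells in culture passes through a transient state that resembles the embryo at the stage of its first cleavage. In that state the transcription factor Dux and endogenous retroviral promoters of the MERVL family switch on genes that are otherwise silent, many of them in tandem clusters of near-identical copies. Several chromatin regulators hold these genes silent in the remaining cells, which makes their contacts a question for the study of chromatin remodellers. In bulk material, fewer cells in the state and fewer contacts in each such cell cannot be told apart.

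The libraries were made by promoter-capture Micro-C, in which fixed chromatin is digested to nucleosome-sized pieces by micrococcal nuclease, joined by ligation and captured at promoters, so that ligated pairs report which places in the genome lay close to a promoter. All cells were E14, a male mouse embryonic stem cell line grown in serum and LIF, and were collected 48 h after they received esiRNA, which is long double-stranded RNA cut into short interfering pieces. The esiRNA was against EGFP in the Control group, against Smarca4, which encodes Brg1, the ATPase of the esBAF remodeller, in the Brg1KD group, and against Ino80, the ATPase of the INO80 remodeller, in the Ino80KD group. Each of the 3 groups had 2 libraries. The cells carried no other stated alteration. By the labels, batch 1 held the first replicate of each group, batch 2 the second Control replicate and batch 3 the second replicates of Brg1KD and Ino80KD, so for the second replicates batch and depletion cannot be told apart against Control, while the 2 depletions are balanced over batches. RNA was not analysed here, so the extent of the knockdowns, the identity of the cells and the share of cells in the two-cell-like state were not checked.

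The lists held between 12313 and 15385 same-chromosome loops per library, fewest in the Brg1KD libraries. Loops between chromosomes made up 19.2% to 21.4% of a list except in Brg1KD replicate 1, where they made up 29.9%. The labels do not state whether replicates were separate cultures, so their spread may be technical. Intervals given below are exact binomial (Clopper-Pearson) 95% intervals. A limit for a count of 0 is an approximation, 3 divided by the number of same-chromosome loops in the list, and lies below the exact upper bound. The intervals and these limits cover counting error only.

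No Zscan4 gene had a bait in these lists. Zscan4c, Zscan4d and Zscan4f encode zinc finger proteins with a SCAN domain that are known for telomere lengthening in embryonic stem cells. They lie on chromosome 7 of mm10 at chr7:11005745-11010547, chr7:11161643-11166148 and chr7:11397915-11402318. The nearest listed bait was 290 kb from Zscan4c, 446 kb from Zscan4d and 267 kb from Zscan4f. Tcstv1 (chr13:119893387-119894785), known like its paralog Tcstv3 from two-cell embryos and telomere maintenance, had none either, its nearest being 17.2 kb away. The other 6 genes had 1 bait each. Of 21887 protein-coding genes in the annotation, 70.5% had a listed bait within 2 kb of the gene body. Of the same genes, 5.24% lay at least as far from a bait as the nearest of these Zscan4 genes. A bait is known here only where some list holds it, so a probe without a listed loop would not be seen.

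**Figure D1:**
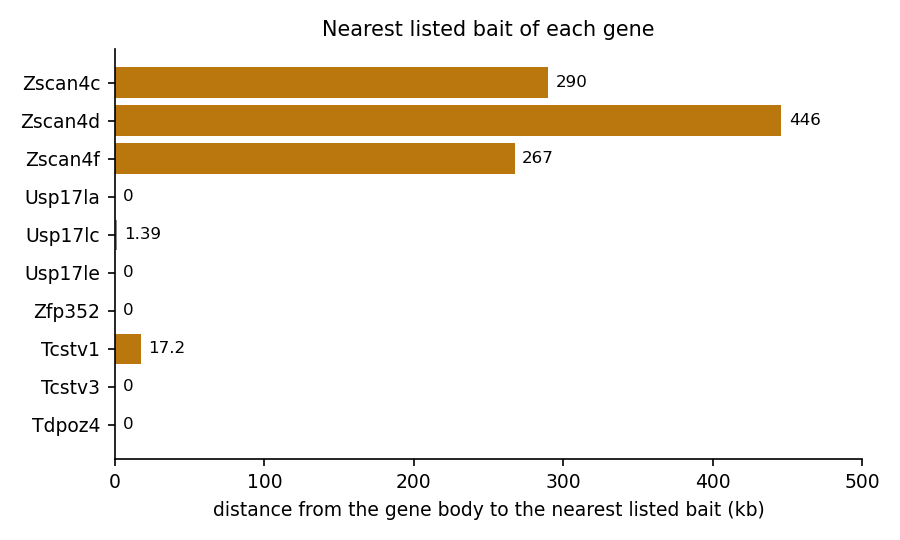
The bars give the distance in kb from each gene's body to the nearest listed bait, with the value beside each bar. The Zscan4 genes stand 267 to 446 kb from a bait and Tcstv1 17.2 kb, while the remaining 6 lie on a bait or within 1.39 kb of one.

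The promoters of the Zscan4 genes are shown because they are nearly the same sequence, as are those of Usp17la and Usp17lc. RefSeq (GRCm38.p6) promoters of 300 bases, from 250 before to 50 after the annotated start, were at hand for 7 of the 10 genes. Each sequence below reads 5′ to 3′ along its gene. Capitals in Zscan4d and Zscan4f mark bases that differ from Zscan4c where the windows align. Zscan4c is at chr7:11005495-11005794 on the plus strand, Zscan4d at chr7:11166099-11166398 on the minus strand and Zscan4f at chr7:11397665-11397964 on the plus strand.
Zscan4c: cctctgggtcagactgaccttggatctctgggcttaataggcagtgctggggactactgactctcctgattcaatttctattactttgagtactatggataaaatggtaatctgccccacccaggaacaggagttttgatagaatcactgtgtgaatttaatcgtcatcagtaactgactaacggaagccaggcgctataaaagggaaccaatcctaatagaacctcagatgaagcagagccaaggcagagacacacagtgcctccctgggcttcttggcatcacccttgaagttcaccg
Zscan4d: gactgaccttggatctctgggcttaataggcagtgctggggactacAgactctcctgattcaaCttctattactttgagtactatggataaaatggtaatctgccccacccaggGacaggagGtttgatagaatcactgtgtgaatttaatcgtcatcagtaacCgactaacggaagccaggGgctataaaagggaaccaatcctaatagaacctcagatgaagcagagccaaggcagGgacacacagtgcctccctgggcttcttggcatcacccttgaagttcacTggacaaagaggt
Zscan4f: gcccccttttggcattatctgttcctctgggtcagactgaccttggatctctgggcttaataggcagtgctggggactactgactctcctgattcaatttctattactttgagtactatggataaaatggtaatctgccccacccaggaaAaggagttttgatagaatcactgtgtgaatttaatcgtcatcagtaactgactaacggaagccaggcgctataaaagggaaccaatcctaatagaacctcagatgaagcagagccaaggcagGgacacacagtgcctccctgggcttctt

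Zscan4c and Zscan4d were identical at 97.2% of 289 aligned bases, Zscan4c and Zscan4f at 99.3% of 277, and Zscan4d and Zscan4f at 97.4% of 266. Of the stretches of 36 bases in the window, 72.1% in Zscan4c, 53.2% in Zscan4d and 77.7% in Zscan4f also stood in the promoter of another gene. Over all protein-coding genes with a promoter in the table, a listed bait was present for 74.4% of 13439 genes that shared no such stretch, for 69.9% of 1710 that shared up to 50% of them and for 52.6% of 2343 that shared more. The other members with a promoter in the table, all of which had a bait, shared from 0% (Zfp352) to 38.9% (Usp17lc). The letters TATAAA, on either strand, were in the windows of all 3 Zscan4 genes and of Usp17lc, 4 of the 7, against 13.6% of all 32851 promoters of this length.

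The Zscan4 genes lie in a stretch of 954 kb with no bait, chr7:10715713-11669779, which holds 45 annotated genes. Of these, 5 are protein-coding, 36 are pseudogenes and 9 carry a Zscan4 name. Among 19062 stretches between neighbouring baits, 2.60% were at least as long, and the median was 35.9 kb. Loops of baits outside the stretch ended within it 1 and 3 times in Control, and 1 and 2 times in either depletion. The groups overlapped. These 10 loops met only 3 places, and the one nearest a member was chr7:11180001-11200000, 13.9 kb from Zscan4d. It was listed with the bait of Zik1, a Krüppel-type zinc finger gene, in Control replicate 2 at a score of 5.7 and in Ino80KD replicate 2 at 5.90, both close to the minimum. The lists thus hold no loop of a Zscan4 promoter in any group, and whether a probe covered one cannot be told from them.

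Summed over the 6 baits, the members' loops were few in every group and fewest in Brg1KD. The Control libraries held 2 and 5, the Brg1KD libraries 0 and 1, and the Ino80KD libraries 4 and 3. Both Brg1KD libraries lay below every other library, and the Ino80KD values lay within the Control range. Among single baits with a loop, Brg1KD lay below Control for 7.62% and below Ino80KD for 7.51%. No such share was taken for sums over 6 baits. Per 1000 same-chromosome loops, the group means were 0.238 ± 0.153 (SD, n = 2) in Control, 0.0384 ± 0.0543 in Brg1KD and 0.241 ± 0.0420 in Ino80KD. A count of 0 in Brg1KD replicate 1 allows up to 0.244 per 1000 by the approximate limit and 0.300 by the exact interval, both above the Control mean. The intervals of all 6 libraries overlapped.

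The ratio of group means was 0.161 for Brg1KD against Control, 1.01 for Ino80KD against Control and 6.29 for Ino80KD against Brg1KD. From the pooled counts these were 0.168 (0.00373 to 1.31), 1.03 (0.309 to 3.45) and 6.13 (0.788 to 276), so each counting interval includes 1. The first rests on a single Brg1KD loop, and was 0.322 without Brg1KD replicate 1, 0 without Brg1KD replicate 2 and 0.295 without Control replicate 2. Without Control replicate 2 the Ino80KD ratio to Control was 1.86, and without Brg1KD replicate 1 the ratio between depletions was 3.15. The lower level in Brg1KD thus lay within counting error at this number of loops, and it was not tested. These intervals treat loops as separate counts and leave out the spread between replicates.

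**Figure D2:**
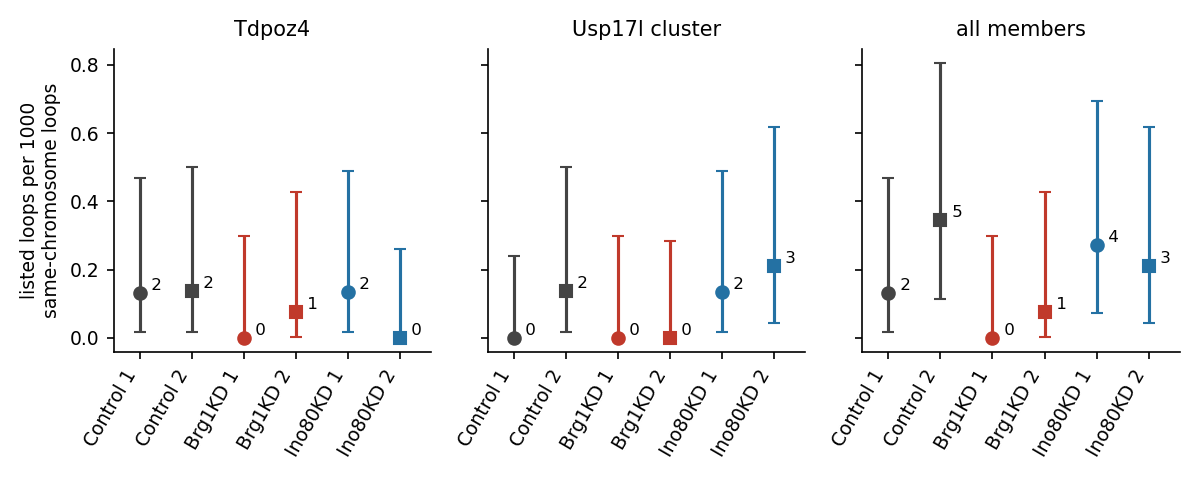
The points give listed same-chromosome loops per 1000 in each library for Tdpoz4, for the 3 Usp17l genes together and for all members, with exact 95% counting intervals and the number of loops beside each point. The Brg1KD libraries hold 0 and 1 member loops and the Usp17l genes none there, and the intervals overlap throughout.

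Tdpoz4 (chr3:93796398-93797510), which encodes a protein with the TRAF and BTB/POZ domains of the Spop family, held 7 of the 15 loops. Its RefSeq promoter, chr3:93796148-93796447 on the plus strand, lies wholly inside its bait and is shown because more of these loops start there than at any other member.
Tdpoz4: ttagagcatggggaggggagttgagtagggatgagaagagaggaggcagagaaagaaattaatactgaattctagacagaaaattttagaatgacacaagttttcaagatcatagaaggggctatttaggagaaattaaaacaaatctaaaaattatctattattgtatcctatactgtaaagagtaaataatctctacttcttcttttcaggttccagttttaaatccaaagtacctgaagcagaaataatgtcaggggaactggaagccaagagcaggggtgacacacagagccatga

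The bait of Tdpoz4 held 2 loops in each Control library, 0 and 1 in Brg1KD, and 2 and 0 in Ino80KD. The 2 Control libraries were alike and above both Brg1KD libraries, while Ino80KD overlapped Control. Of the 5 member baits with a same-chromosome loop, this was the 1 with each Brg1KD library below each Control library, an order found for 7.62% of the 17271 baits with a loop. None of the 5 had Control below Brg1KD (11.7% of baits), Ino80KD below Control (7.1%) or Ino80KD below Brg1KD (12.1%). The partners formed 2 groups, apart from 1 at Gm5541, 166 kb away, in Control replicate 1. The first group lay 519 to 534 kb away at Them4, which encodes an acyl-CoA thioesterase, and included chr3:94320001-94340000, the single member loop listed in 2 libraries by identical ends (Control replicate 2, score 5.45, and Ino80KD replicate 1, 5.97). The second lay 725 to 746 kb away on the other side, by the paralog Tdpoz8, once in each Control library and once in Brg1KD replicate 2. The highest score of any member loop, 7.70, was there in Control replicate 2.

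The Usp17l genes encode deubiquitinases of the DUB family, which remove ubiquitin from proteins. Usp17la (chr7:104857016-104862667), Usp17lc (chr7:103416696-103419174) and Usp17le (chr7:104767961-104777470) lie among olfactory receptor genes on chromosome 7. The bait counted for Usp17lc lies 1.39 kb outside the gene. The promoters of Usp17la (chr7:104856766-104857065, plus strand) and Usp17lc (chr7:103416446-103416745, plus strand) follow, with capitals in Usp17lc for bases that differ from Usp17la where the windows align.
Usp17la: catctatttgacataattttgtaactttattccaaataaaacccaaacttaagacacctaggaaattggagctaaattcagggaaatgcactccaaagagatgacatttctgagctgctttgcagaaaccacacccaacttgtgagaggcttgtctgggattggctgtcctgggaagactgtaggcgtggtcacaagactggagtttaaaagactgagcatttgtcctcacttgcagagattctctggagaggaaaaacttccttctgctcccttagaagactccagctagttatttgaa
Usp17lc: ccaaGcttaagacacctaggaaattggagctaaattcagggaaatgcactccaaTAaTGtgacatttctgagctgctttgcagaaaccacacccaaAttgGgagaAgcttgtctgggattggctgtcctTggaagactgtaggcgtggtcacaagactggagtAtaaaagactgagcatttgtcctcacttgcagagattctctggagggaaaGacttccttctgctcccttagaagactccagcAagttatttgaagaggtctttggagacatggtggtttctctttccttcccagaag

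The promoters of Usp17la and Usp17lc were the same at 245 of 258 aligned positions. Of the Usp17la window 177 bases lay inside its bait, and of the Usp17lc window none did. Together the 3 genes held 0 and 2 loops in Control, 0 and 0 in Brg1KD, and 2 and 3 in Ino80KD. Brg1KD was listed at 0 throughout, which is also the value of Control replicate 1. No pair of libraries shared one of these loops by identical ends.

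Usp17la was listed with no loop in Control or Brg1KD and with 1 in each Ino80KD library. The 2 Ino80KD partners were neighbouring bins, 447 and 427 kb away at Trim30c and Trim30a, genes of the tripartite motif family, with scores of 5.41 and 6.15. Usp17la was the 1 of 5 baits for which both Ino80KD libraries lay above both Control libraries, an order found for 10.1% of baits. It was also 1 of the 2 for which they lay above both Brg1KD libraries (7.51% of baits). The other was Usp17le.

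Usp17le held 1 loop in Control replicate 2 and 1 in each Ino80KD library, with partners 232 to 714 kb away at olfactory receptor genes and at Gm36847. Usp17lc held 1 in Control replicate 2 and 1 in Ino80KD replicate 2, 184 kb away at Olfr594 and 843 kb away at Olfr550. Each partner of these 2 genes was listed once, with scores from 5.09 to 6.91.

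Zfp352 (chr4:90218820-90225687), a zinc finger gene whose transcript is used as a marker of the two-cell embryo, had a bait within its body but no same-chromosome loop in any library. That bait, chr4:90222505-90224364, held 0 bases of the gene's promoter window, chr4:90218570-90218869. The count is therefore of a place within the gene and not of its annotated promoter. With 0 of 15385 loops in the longest list, up to 0.195 per 1000 is allowed by the approximate limit and 0.240 by the exact interval.

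Over all members the median distance between bait and partner was 534 kb, from 166 to 843 kb, against 250 kb for all same-chromosome loops. The median score of the members' loops was 5.45 against 5.94 for all. Counted by identical ends, 13 of 14 distinct loops were in a single library. None joined a member bait to another bait. The genes whose baits spread their loops over the 6 libraries most nearly as the members did, by a distance that is 0 for the same shares of loops per library and 1 for shares with nothing in common, were Zfp580 (0.0584), Alkal2 (0.0695), Cd9 (0.0823), Tfap2c (0.0995) and Olfr1329 (0.104). The median over the 6078 genes with at least 5 loops was 0.371. Zfp580, a zinc finger gene, was listed 3 and 6 times in Control, 0 and 2 times in Brg1KD, and 6 and 4 times in Ino80KD. These 5 were picked for that likeness.

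Tcstv3 (chr13:120316862-120318261) had nearly all its loops with other chromosomes. Such loops were also listed for Zfp352, 1 and its only one, and for Tdpoz4, 2 beside 7 on its own chromosome, but not for the Usp17l genes. The bait of Tcstv3, chr13:120316447-120318306, held 37 loops over the 6 libraries, of which 36, or 97.3%, were to another chromosome, and the exception led 704 kb away to Tmem267 in Control replicate 2. Among the 2732 baits with at least 10 loops, 30.6% had any loop to another chromosome and 4.32% had as high a share. Of the 36 loops, 34 ended on chromosome 11. Control replicates listed 6 and 8 of these, Brg1KD replicates 3 and 6, and Ino80KD replicates 8 and 3. The groups overlapped.

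The chromosome 11 ends of the Tcstv3 bait came back in different libraries. There were 14 distinct ends, and the 8 found in at least 2 libraries spanned 220 kb, chr11:121740001-121960000. The end chr11:121840001-121860000, at Ptchd3, a gene of the patched domain family, was listed in all 6 libraries with scores of 16.98 to 65.48. The end chr11:121920001-121940000, at Gm9631, was also listed in all 6, with scores of 9.63 to 40.33. By contrast, no same-chromosome loop of a member was in more than 2 libraries. The bait of Gm21818 on the same chromosome as Tcstv3 (chr13:120172064-120173923) reached the 220 kb stretch in 4 libraries, 1 loop in each. So did baits elsewhere: one on chromosome 19 (chr19:61296330-61298189) had 4 loops there in 3 libraries, one on chromosome 9 had 2 in 2 libraries, and baits on chromosomes 2, 5, 11 and 16 had 1 or 2 each in a single library. Whether the 2 places are neighbours in the nucleus or share sequence was not tested, since no genome sequence was used here.

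**Figure D3:**
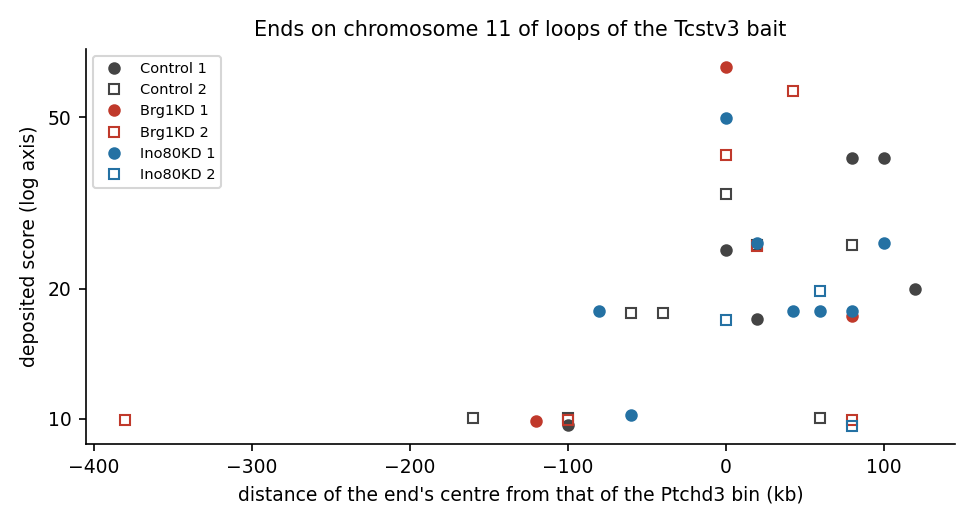
Each point is a listed loop of the Tcstv3 bait on chromosome 13 that ended on chromosome 11, placed by the distance of that end from the Ptchd3 bin in kb and by its deposited score on a log axis, with colour for the group and shape for the replicate. The Ptchd3 bin at 0 and the Gm9631 bin 80 kb from it hold points from all 6 libraries.

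Loops of other baits also ended at member genes, on the unbaited ends of the lists, which are bins of a 20 kb grid cut at baits. There were 39 of these at 4 of the 10 genes. The unbaited end just before Tdpoz4, chr3:93780001-93795277, was listed 4 and 5 times in Control, 1 and 1 times in Brg1KD, and 1 and 0 times in Ino80KD. All 4 depletion libraries lay below both Control libraries there, an order found at 4.08% of the 1813 unbaited ends with at least 10 loops. That of Brg1KD below Control was found at 12.9%, and that of Ino80KD below Control at 11.3%.

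This end was singled out after its values were seen, so its ratios are given with no interval. The ratio of group means per 1000 to Control was 0.261 in Brg1KD and 0.112 in Ino80KD. The Ino80KD ratio rests on 1 loop, and was 0 without Ino80KD replicate 1, 0.224 without Ino80KD replicate 2 and 0.261 in batch 1 alone. The difference lay among low scores: at a score of 7 or more there was 1 loop in each group, and on that setting the ratios were 1.14 and 0.901. The bait of Tdpoz8 reached this end in Control replicate 1 (6.58), in both Brg1KD libraries (5.7 and 8.35) and in Ino80KD replicate 1 (11.46). The baits of Spopfm1, of the same Spop-related family, of Them4 and Them5, of Tdpoz9 and of Crnn reached it in the Control libraries alone, with scores of 5.40 to 8.65. In the authors' deposited tables, which compare normalized signal rather than listing, the 20 Brg1KD entries of other baits whose region held Tdpoz4 had a median log2 fold change of -0.01 with 10 below 0, and the 19 Ino80KD entries had a median of -0.16 with 10 below 0. None had an unadjusted p under 0.05, so the lower listing in the depletions had no counterpart passing that threshold in these tables. The 10 Ino80KD entries below 0 all belonged to the baits of Tdpoz9, Spopfm1, Them4 and Them5, from -0.82 to -0.16. Other Spopfm1 entries stood at 0.14 and 0.02, and those of Tdpoz8 at 0.36 and 0.16. In Brg1KD the entries of the same baits ran from -0.72 (Them4) to 0.58 (Spopfm1) in the authors' deposited tables. Entries of 1 bait overlap, and the split was made after the values were seen and was not tested.

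At Tcstv1 a single loop accounted for all the listing. It joined the Gm21818 bait to the end chr13:119880001-119894006, which overlaps the gene, in 5 of 6 libraries, at scores of 15.23 (Control replicate 1), 7.49 and 12.99 (Brg1KD), and 13.86 and 9.06 (Ino80KD). Control replicate 2 did not list it. In the authors' deposited tables the entry for this bait and a region holding Tcstv1 had a log2 fold change of 0.34 ± 0.48 (SE) in Brg1KD and 0.10 ± 0.51 in Ino80KD, both less than 1 SE from 0.

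Usp17la was the end of 0 and 6 loops in Control, 2 and 1 in Brg1KD, and 4 and 2 in Ino80KD. The Control libraries held both the lowest and the highest value. Usp17le was the end of 0 and 1 in Control, 1 and 0 in Brg1KD, and 2 and 3 in Ino80KD. This end, at 7 loops in all, is under the minimum of 10 behind the shares of unbaited ends given above. The authors' deposited regions that held Usp17le are wider than this end and come in part from other baits, so they are no like comparison with that listing. Baits with both an Ino80KD loop here and an Ino80KD entry stood at 0.57, -0.08 and -0.06 in the authors' deposited table. All 12 Ino80KD entries of other baits had a median of -0.07, with 7 below 0. The 15 Brg1KD entries had a median of 0.13, with 4 below 0, in the authors' deposited tables. None of these had an unadjusted p under 0.05.

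**Figure D4:**
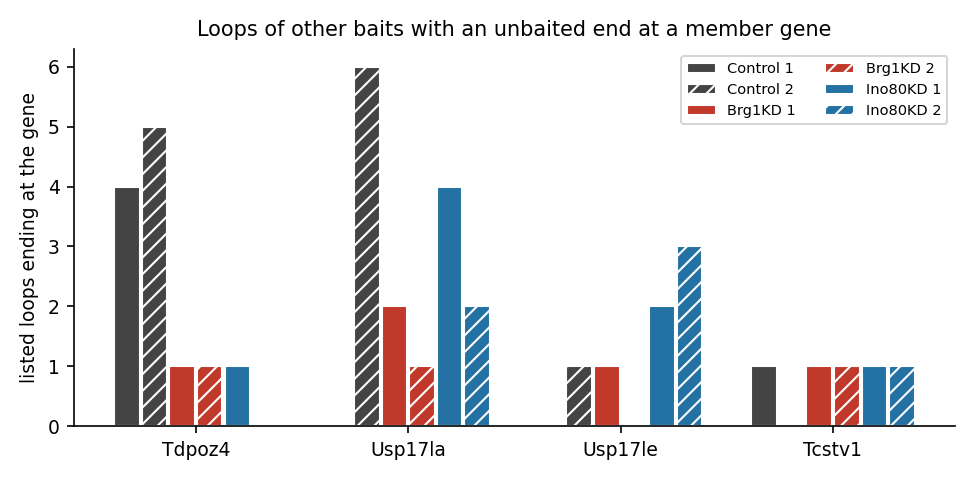
The bars give the number of listed loops of other baits whose unbaited end overlapped each gene body extended by 2 kb, by library. Control holds 4 and 5 loops before Tdpoz4 against 0 or 1 in each depletion library, whereas the Control libraries differ most from each other at Usp17la, with 0 and 6.

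The authors' deposited tables give fold changes for regions that join neighbouring loops of a bait. No header states their direction. A value above 0 is read here as higher in the depletion, since 81.2% of table entries that matched loops listed in both Brg1KD libraries and neither Control library were above 0, against 18.4% for the opposite case, and for Ino80KD these were 84.8% and 18.1%. The 2 tables share the Control libraries. Each held 6 entries of member baits, from 4 baits, and none of them had an unadjusted p under 0.05. Over all entries for Brg1KD, 0.827% of entries were lower and 0.373% higher at that threshold, and over all for Ino80KD, 0.382% were lower and 0.912% higher. No entry of either whole table had an adjusted p under 0.05 in the authors' deposited tables.

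For Brg1KD, 5 of the 6 member entries in the authors' deposited table lay below 0, against 51.3% of all entries. Their median in the authors' deposited table was -0.16 and their range -0.48 to 0.03. The 3 lowest were those of Tdpoz4. They stood in the authors' deposited table at -0.48 ± 0.80 (SE) for the region at Them4 (chr3:94266427-94363183), -0.42 ± 0.84 for the region by Tdpoz8 (chr3:93000001-93080000) and -0.29 ± 0.72 for the nearest region (chr3:93555820-93672689). The 3 highest of these in the authors' deposited table were Tcstv3 at 0.03 ± 0.80, Usp17le at -0.02 ± 0.65 and Usp17lc at -0.03 ± 0.72. Every value was smaller than its error. Entries of other baits whose region held a member did not share that lean: 11 of the 15 regions with Usp17le lay above 0, and the region with Tcstv3 stood at 1.09 ± 0.70 (SE), with an unadjusted p of 0.116, in the authors' deposited table. For Usp17la 7 of 12 and for Usp17lc 2 of 3 lay below 0 in the authors' deposited table.

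For Ino80KD, 3 of the 6 member entries in the authors' deposited table lay below 0, against 49.6% of all, and their median was 0.02. The lowest was the region nearest Tdpoz4 at -0.93 ± 0.78 (SE), with an unadjusted deposited p of 0.233 in the authors' deposited table. Next in that authors' deposited table came Tcstv3 at -0.32 ± 0.80 and the Them4 region of Tdpoz4 at -0.10 ± 0.74. The highest in the authors' deposited table were 2 overlapping Usp17la regions at Trim30a, both at 0.14, and Usp17le at 0.14 ± 0.63. For Tdpoz4 the region at Them4 was thus -0.48 in Brg1KD and -0.10 in Ino80KD, and the nearest region -0.29 and -0.93, in the authors' deposited tables, where the difference between depletions was not tested.

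The members' entries had little signal. Their mean normalized signal in the authors' deposited tables was 8.55 to 19.0, against table medians of 59.5 and 62.7. Their errors were 0.56 to 0.84, against medians of 0.33 in both of the authors' deposited tables. With such errors a difference of the size of the members' medians was not detectable.

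**Figure D5:**
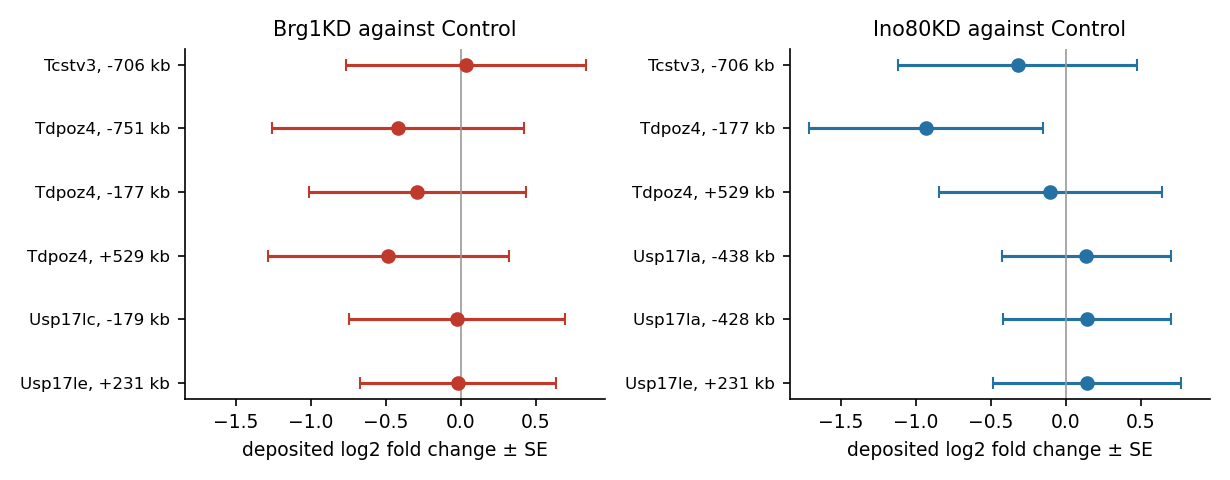
The points give the authors' deposited log2 fold change with its SE for each entry of a member bait, labelled by gene and by the mean distance of the region from the bait, negative towards lower coordinates. The 3 Tdpoz4 entries are the lowest in Brg1KD at -0.48 to -0.29, and 1 Tdpoz4 entry at -0.93 is the lowest in Ino80KD.

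Other genes of the two-cell-like programme were taken in 3 lists drawn up from general knowledge, with earlier results of these data known. Relatives, which are further members of the same families and other genes of the state, numbered 34. Of these, 29 were matched to the annotation and 15 had a bait. Their loops numbered 11 and 14 in Control, 9 and 9 in Brg1KD, and 19 and 6 in Ino80KD. Scaled to the length of the lists, Brg1KD overlapped Control, and the Ino80KD libraries lay on either side of it. Gm8300, a relative with many loops, held 2 and 4, 1 and 2, and 8 and 1 in the same order, so 1 Ino80KD library carried its high value. In the authors' deposited tables none of the 22 Brg1KD and 25 Ino80KD entries of relatives had an unadjusted p under 0.05, with medians of -0.04 and -0.17.

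Activators of the state numbered 7, of which 6 were matched to the annotation and 4 baited. They held 2 and 2 loops in Control, 0 and 2 in Brg1KD, and 1 and 9 in Ino80KD. Of the 9 in Ino80KD replicate 2, 7 were at the 1 bait of Trp53. The Ino80KD libraries lay on either side of Control. All 5 of their Brg1KD entries in the authors' deposited table lay below 0, against 51.3% of all entries, with a median of -0.30, and none passed the threshold. Of these 5, 3 are overlapping regions of the 1 bait of Dppa2, which encodes an activator of Dux, from -0.44 to -0.30, and that of Trp53 was at -0.01, in the authors' deposited table. Over 12 Ino80KD entries in the authors' deposited table the median was 0.27, with 4 below 0, and none passed. The same 3 Dppa2 regions lay below 0 in Ino80KD too, from -0.42 to -0.32 in the authors' deposited table. Both tables share the Control libraries.

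Repressors of the state numbered 28, with 22 baited, and held 32 and 23 loops in Control, 21 and 28 in Brg1KD, and 27 and 35 in Ino80KD. These groups overlapped. Of their 59 Brg1KD entries in the authors' deposited table, 6 were lower at an unadjusted p under 0.05, against 0.827% of all entries, and none higher, against 0.373%. Of 60 Ino80KD entries in the authors' deposited table, 2 were higher, against 0.912% of all, and none lower, against 0.382%. Entries of 1 bait can overlap, so these counts are not of separate contacts. The list was also drawn up with earlier results of these data known, so the counts are a description. After adjustment no entry passed. The median over the list was -0.05 in Brg1KD and 0.12 in Ino80KD, against -0.01 and 0.00 over the whole of the authors' deposited tables.

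The 6 lower entries belonged to 2 genes. Atf7ip, which encodes the partner of the histone H3 lysine 9 methyltransferase Setdb1, held 4 of them. Its 8 entries in the authors' deposited Brg1KD table, which overlap each other, ran from -0.52 to -0.36 with a smallest unadjusted p of 0.0269, and its 10 in the Ino80KD table had a median of 0.13. The loops listed at Atf7ip numbered 8 and 4 in Control, 1 and 1 in Brg1KD, and 7 and 8 in Ino80KD, so both Brg1KD libraries lay below the other 4. Among single baits with a loop, Brg1KD lay below Control for 7.62% and below Ino80KD for 7.51%. Atf7ip has 4 baits, and no share was taken over genes or for both orders together. The ratio of group means per 1000, Brg1KD to Control, was 0.198. Atf7ip was named for its Brg1KD entries in the same libraries and its neighbouring baits reach shared ends, so this ratio is no separate support for them. Zfp809, a zinc finger protein that silences retroviruses, held the other 2 lower entries, also overlapping regions of 1 bait, whose median was -0.70 in the authors' deposited table, and its loops numbered 2 and 1, 0 and 1, and 1 and 0.

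Ncl, which encodes nucleolin, known to repress Dux, held the 2 higher Ino80KD entries, which are overlapping regions of 1 bait. In the authors' deposited table chr1:86420001-86560000 stood at 0.75 and chr1:86425209-86580000 at 0.72, with a smallest unadjusted p of 0.0103. The loops listed at Ncl were 0 and 0 in Control, 1 and 0 in Brg1KD, and 0 and 2 in Ino80KD. The baits of Dnmt1, the maintenance DNA methyltransferase, held 3 and 5, 4 and 5, and 5 and 4, nearly level. Those of Ehmt2, the histone methyltransferase G9a, held 4 and 2, 2 and 3, and 4 and 10, with the highest value in 1 Ino80KD library.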

How the data were processed

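Promoter-capture Micro-C libraries of 3 groups, 2 each, were taken as deposited. Per the file headers and values, the authors deposited for each library a list of loops with a score, from 5 up, and for each group a list of positions, which are other values than a measurement and served to find a bait whose loops those lists hold in part. The sources used here do not name the loop caller. Per the submitters' processing notes, positions are on mm10 and bedtools was among the tools. Per the file headers, the authors' deposited tables give a mean normalized signal, log2 fold changes with errors, and p-values before and after adjustment. Read depth per library is unknown. The deposited score was used only within a list.

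Members and gene lists were chosen with earlier results of these data known. Genes were placed by RefSeq GRCm38.p6, whose main chromosomes are those of mm10. All 10 members matched. Loops per 1000 same-chromosome loops were counted per library with Python 3.11.15, pandas 2.3.3 and SciPy 1.17.1, and promoters were aligned with Biopython 1.88. Overlap counting was checked on made-up intervals. No test was run on members. All members were named, with the 3 lowest and 3 highest deposited entries of each table, partners in at least 2 libraries, listed genes with an unadjusted p under 0.05 or, where fewer than 4 had one, the 4 with the most loops, and the 5 genes most like the members. Further partners, ends and Dppa2 and Trp53 were named after their values were seen. Replicate 1 shares a batch in all groups and replicate 2 in the depletions, per the labels, so the numbers pair the depletions.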

Additional observations from a re-analysis of the deposited data

Results flagged for a closer look

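Of 32 genes, clusters and ends looked at, 3 had both Brg1KD libraries on one side of the Control mean and both Ino80KD libraries on the other, and for none of them was the difference between depletions tested. The share of all genes that meet this rule was not taken, so the count has no background and is not read as a result. Items without a loop in any library could not meet the rule. For Usp17le, listed loops per 1000 differed from Control by -0.0346 in Brg1KD and by 0.0346 in Ino80KD, on 3 loops in all. For the Usp17l cluster, which includes Usp17le, the differences were -0.0692 and 0.104. For Atf7ip they were -0.319 and 0.121. The Control libraries are shared by both differences.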

How the results depend on the processing

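The ratio of members' loops per 1000 in Brg1KD against Control, 0.161, stayed below 1 under all 19 alternatives, but several of these could not change its side. Leaving out the Zscan4 or the Zfp352 cluster removed no loop. Leaving out 1 library could not bring it above 1, since both Brg1KD libraries lay below every other library. At a score of at least 7 it was 0, with 1 member loop left in all. This ratio moved beyond the replicate spread to 0.430 with an extension of 10 kb and, with choices made after seeing the data, to 0.437 with loops ending at a member gene added and to 0.700 with loops between chromosomes added. The ratio of Ino80KD against Control, 1.01, was 2.09 in batch 1 alone, 0 at a score of at least 7, where 1 member loop was left, and 0.698 to 1.86 with 1 library left out, so it has no settled side. The ratio of Ino80KD against Brg1KD, 6.29, has a replicate spread of 8.97, which no fall could exceed. It stayed above 1, at 1.77 without the Usp17l cluster, 2.06 with an extension of 10 kb, 2.03 with loops ending at a member gene added and 1.18 with loops between chromosomes added. Here too, leaving out 1 library or a cluster without loops could not change the side. With the replicate number as a block, the ratio stratified by number was 0.161, 1.03 and 6.25 in these 3 contrasts, and a geometric mean, which cannot be had for Brg1KD with a library at 0, was 1.13 for Ino80KD against Control. The block ended no call, since no ratio was tested. The median deposited log2 fold change of the authors' tables kept its sign in Brg1KD (-0.29 to -0.02) and turned from 0.02 to as low as -0.32 with 1 value per cluster in Ino80KD, within 1 SE of 0. No member entry lay above the median signal, so that alternative gave no value. Leaving out Brg1KD replicate 2 or keeping batch 1 gave Ino80KD against Brg1KD no value, since no Brg1KD loop was left. The number of loops, not the number of libraries alone, limits these ratios, and the causes of the moves were not tested.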

Other observations

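Loops of 2 other member baits also led to other chromosomes, each in a single library of the Brg1KD group. The Tdpoz4 bait was listed with chr4:96900001-96920000 in Brg1KD replicate 1 at a score of 5.08 and with chr1:106460001-106480000 in Brg1KD replicate 2 at 5.55. The Zfp352 bait, which had no same-chromosome loop, was listed once, with chr8:42080001-42100000 in Brg1KD replicate 2 at 10.83. Brg1KD replicate 1 is the library with the highest share of loops between chromosomes, and the part of that share in these loops was not tested.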
